A study of Mus musculus with 11 samples.

Results

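Genes that carry arginine into cells and use it there were examined in LSEC (liver sinusoidal endothelial cells), which form the fenestrated wall of hepatic capillaries. They were taken from a list of 8 symbols (Slc7a1, Slc7a2, Arg1, Arg2, Nos2, Ass1, Asl and Odc1), and each was read at the transcript cluster that the platform's annotation gives for its symbol, the brightest where there were several. A cluster was found for 7 of the 8 genes among 22206 clusters tested, and Ass1, the ligase that makes argininosuccinate, was not analysed here. The knockout samples came from Atg5lox/lox;VE-cadherin-Cre mice (5 arrays), in which Cre under the promoter of the endothelial cadherin Cdh5 deletes Atg5, a gene needed to form autophagosomes. The wild type samples came from Atg5lox/lox mice without Cre (6 arrays). Both genotypes thus carried the floxed alleles, and both were started on a high fat diet at 8 weeks of age and sampled after 2 weeks. The labels do not say how the cells were purified, whether an array holds 1 mouse or a pool, or whether Cre acts outside endothelium.

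Arginine enters most cells through the cationic amino acid transporters encoded by Slc7a1 and Slc7a2. Inside the cell it is split by the arginases, cytosolic Arg1 and mitochondrial Arg2, into urea and ornithine, or turned by nitric oxide synthases such as the inducible Nos2 into nitric oxide and citrulline. Citrulline is recycled to arginine by Ass1 and Asl, and ornithine is the substrate of Odc1, the first enzyme of polyamine synthesis. In liver, Arg1, Ass1 and Asl belong to the urea cycle of hepatocytes, and Arg2, Nos2 and Slc7a2 are known as genes that activated macrophages induce. These roles are not exclusive, and a gene of either kind can be expressed in other cells.

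Levels are log2 values after RMA, and array medians lay between 6.61 and 6.75. Each difference is the knockout mean minus the wild type mean on that scale. The number of arrays limits the precision. The 16 LSEC markers had a mean level of 12.12 ± 0.12 (SD, n = 5) in knockout, against 12.14 ± 0.11 (SD, n = 6) in wild type, and all 16 lay above the mean of the antigenomic background rows on all arrays. Atg5 itself read 7.60 ± 0.17 (SD, n = 5) in knockout, against 7.50 ± 0.09 (SD, n = 6) in wild type. No source used here places its probes inside or outside the deleted part, and the genotype is therefore taken from the labels alone. Macrophage and hepatocyte markers differed between the groups. The mean of 15 Kupffer cell and macrophage markers ran from 7.61 to 10.19 in knockout and from 7.01 to 8.47 in wild type, with all 15 above 0 in difference and 13 higher by the study's rule, stated in the next paragraph (exact permutation p = 0.022 for the mean, two-sided). For 20 hepatocyte markers the mean ran from 7.92 to 9.50 in knockout and from 8.78 to 10.20 in wild type, with all 20 below 0 and 13 lower by that rule (exact permutation p = 0.045, two-sided). Of 10 hepatic stellate cell markers 9 lay above 0 and 0 met the rule, and their mean was 8.92 ± 0.41 (SD, n = 5) in knockout, against 8.56 ± 0.35 (SD, n = 6) in wild type (exact permutation p = 0.149, two-sided). On all arrays, 14 of the 15 macrophage markers and all 20 hepatocyte markers lay above the background mean. The marker lists were chosen with earlier results of these data known, so the p-values of their means are a description and not an independent test. Arrays also differed in control rows whose names carry "neg" (5222 rows): their mean was 5.75 in knockout arrays 3 and 4, 5.94 in wild type array 1 and 5.96 in wild type array 6, against 5.05 to 5.38 on the 7 others. The Y-linked gene Uty read 8.58 in knockout array 3, 8.14 in wild type array 3 and 8.66 in wild type array 6, and 2.82 to 3.27 on the 8 others, so both sexes were present.

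The study states a rule of at least 1.5-fold change and an unadjusted p no higher than 0.05, and by it 3 of the 7 measured genes were higher in knockout and 0 were lower. They were the transporters Slc7a2 and Slc7a1 and the arginase Arg2. Over all 22206 clusters, 1.03% met the rule in either direction and 0.671% met it as higher in knockout. The members were chosen with earlier results of these data known, so their count beside these shares is a description only. The 7 genes had a median difference of 0.05 with 5 above 0, against -0.02 over all clusters. None of the 7 passed Benjamini-Hochberg adjustment over all clusters in the limma fit, where 0 clusters passed and 1419 had an unadjusted p of at most 0.05. For every one of the 7 genes the levels of the groups overlapped.

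**Figure D1:**
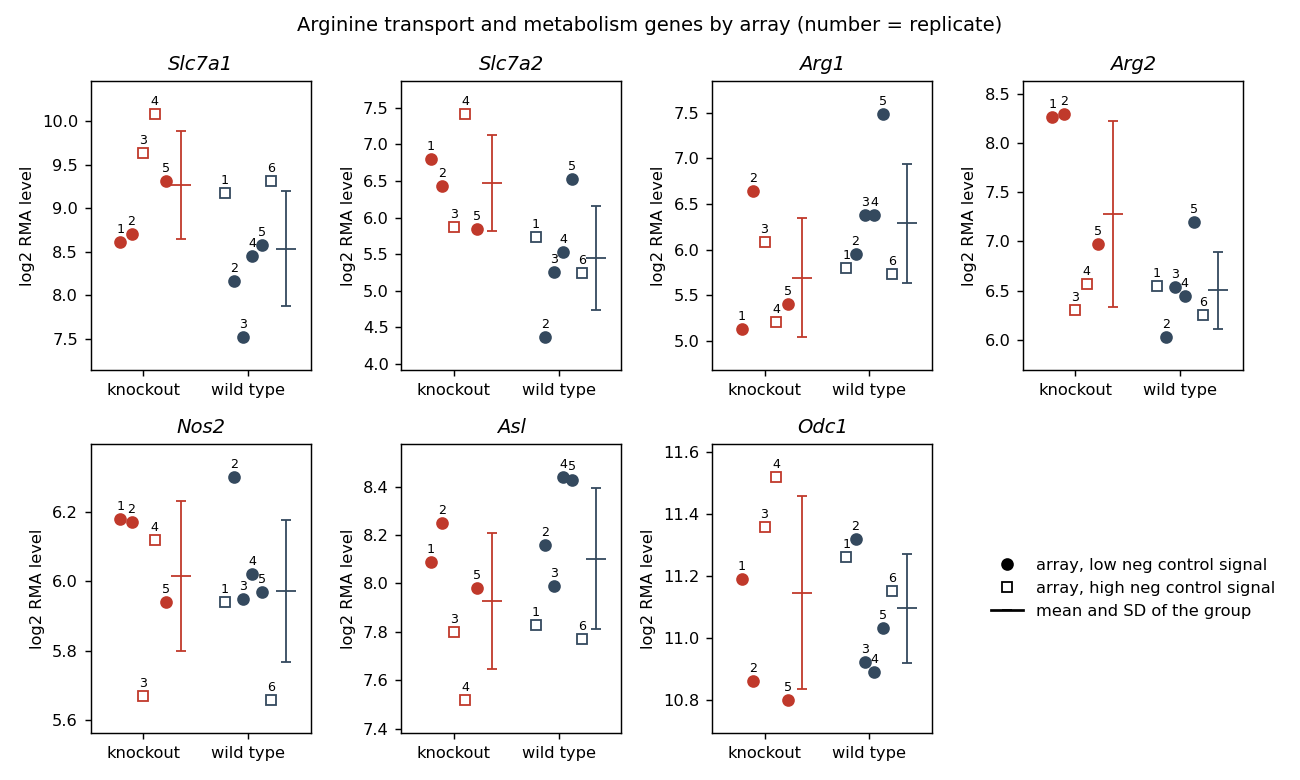
Log2 RMA level of the 7 measured genes in each array, with knockout left of wild type in each panel. Numbers give the replicate, open squares the 4 arrays of high neg control signal, filled circles the other 7, and bars the group mean with its SD. In knockout, Slc7a2 lies above the wild type mean on all 5 arrays, and Arg2 is highest on arrays 1 and 2.

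Slc7a2 encodes CAT2, a cationic amino acid transporter with a low-affinity form in hepatocytes and a high-affinity form in activated macrophages. It read 6.80, 6.43, 5.87, 7.41 and 5.85 in knockout arrays 1 to 5, against 5.74, 4.37, 5.25, 5.53, 6.53 and 5.24 in wild type arrays 1 to 6. All 5 knockout arrays lay above 5 of the 6 wild type arrays, and wild type array 5 was the exception. The knockout mean was 6.47 ± 0.66 (SD, n = 5), against a wild type mean of 5.44 ± 0.71 (SD, n = 6), a difference of 1.03 (SE 0.35) or 2.04-fold. Its 95% confidence interval ran from 1.20-fold to 3.46-fold, with an exact permutation p = 0.035 (two-sided) and a limma adjusted p of 0.765. The level was low: wild type array 2 lay below the background mean of its own array, and the other 10 arrays lay above theirs. Slc7a2 lay below the neg control mean on wild type arrays 1 (5.74 against 5.94), 2 (4.37 against 5.11) and 6 (5.24 against 5.96). It was level with that mean on wild type array 3 (5.25 against 5.24) and above it on all 5 knockout arrays. RMA compresses differences at such levels, so the fold is not a measured ratio of Slc7a2 RNA. Slc7a2 met the study's rule after any 1 of the 11 arrays was left out, with differences of 0.79 to 1.25. The difference was 1.15 within the 4 arrays of high neg control signal (2 knockout, 2 wild type) and 0.94 within the other 7. In the 8 arrays without Y-linked signal it was 1.08. With the macrophage marker mean in the model it was 0.81 (unadjusted p = 0.092, limma), past the fold and not the p of the rule. With the hepatocyte mean in the model it was 1.35. Both marker means differed between the genotypes, so fits with them, here and below, cannot separate genotype from marker level. Whether the transcript came from endothelial cells or from other cells in the preparation was not tested, and in bulk RNA a change in the number of cells of a type and a change in RNA per cell cannot be told apart.

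The other transporter, Slc7a1, encodes CAT1, the high-affinity carrier of arginine, lysine and ornithine in most tissues outside the hepatocyte. Its levels were 8.61, 8.70, 9.64, 10.08 and 9.31 in knockout arrays 1 to 5, against 9.18, 8.16, 7.52, 8.45, 8.58 and 9.31 in wild type arrays 1 to 6. Each of the 5 knockout arrays exceeded the mean of wild type, and 2 of them exceeded the highest wild type array. The knockout mean was 9.27 ± 0.62 (SD, n = 5), against a wild type mean of 8.53 ± 0.66 (SD, n = 6), which is 1.66-fold higher (log2 0.73, SE 0.33). The exact permutation p was 0.095 (two-sided) and the limma adjusted p was 0.765. Slc7a1 kept to the rule in only 4 of the 11 fits with 1 array left out. It missed the rule without wild type array 2 (0.66), 3 (0.53), 4 (0.72) or 5 (0.74), or without knockout array 3 (0.64), 4 (0.53) or 5 (0.72).

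Slc7a1 differed between the sets of arrays with high and low neg control signal by more than between genotypes, with a mean 1.08 higher in the high set. Within the high set the knockout arrays read 9.64 and 10.08, against 9.18 and 9.31 in wild type (difference 0.62). Within the low set they read 8.61, 8.70 and 9.31, against 7.52 to 8.58 in wild type (0.70). All knockout arrays were therefore above all wild type arrays within both sets, which held in that direction for 0.937% of all clusters. With the set as a term in the limma fit the difference was 0.67 with an unadjusted p of 0.0037, and with the hepatocyte mean it was 0.46 (unadjusted p = 0.29). These sets were defined after the levels had been seen, from control rows alone. After subtraction of group means, Slc7a1 followed the neg control mean over the 11 arrays (Pearson r = 0.769 with permutation p = 0.014, Spearman rho = 0.609 with permutation p = 0.066, and r = 0.560 without the 2 arrays farthest from the median). It ran against the LSEC marker mean (r = -0.852, permutation p = 0.0020; rho = -0.864, permutation p = 0.0021; r = -0.967 without those farthest on that measure). Neither passed adjustment over the 63 correlations computed (adjusted p = 0.148 and 0.064 for r). The LSEC marker mean itself ran from 11.96 to 12.08 in the high set and from 12.07 to 12.32 in the low set. Its relation to Slc7a1 therefore cannot be told apart from the difference between the sets.

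Slc7a1 has annotated starts in more than one place, and a single cluster level cannot tell which start was used. RefSeq lists a pair of promoter windows on the minus strand of chromosome 5 in build GRCm38.p6, each from 250 bases before to 50 after a start, and both are shown because the array level covers them together. Capitals mark matches, on either strand, to the TATA box (TATAAA), the CCAAT box, the GC box (GGGCGG), the E-box (CACGTG) or C/EBP-ATF element (TTGCATCA). No matches overlap.
Slc7a1 upstream start, chr5:148399855-148400154: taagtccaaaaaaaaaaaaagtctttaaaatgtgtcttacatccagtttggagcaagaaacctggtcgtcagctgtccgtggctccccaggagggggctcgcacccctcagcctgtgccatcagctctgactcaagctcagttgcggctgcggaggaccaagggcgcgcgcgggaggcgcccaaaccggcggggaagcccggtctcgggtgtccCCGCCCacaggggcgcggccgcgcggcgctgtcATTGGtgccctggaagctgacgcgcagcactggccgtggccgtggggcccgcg
Slc7a1 downstream start, chr5:148392766-148393065: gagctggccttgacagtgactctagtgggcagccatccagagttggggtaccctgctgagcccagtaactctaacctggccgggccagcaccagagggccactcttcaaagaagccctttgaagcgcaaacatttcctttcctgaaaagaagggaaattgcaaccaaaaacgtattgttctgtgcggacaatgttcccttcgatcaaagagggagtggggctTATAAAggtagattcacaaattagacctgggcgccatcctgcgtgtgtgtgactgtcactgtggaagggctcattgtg
The upstream window is 65% G or C and holds 1 GGGCGG and 1 CCAAT, both read on the opposite strand, and no TATAAA. The downstream window is 51.7% G or C and holds 1 TATAAA. Over 32851 RefSeq windows of the same length, TATAAA occurs in 13.6%, CCAAT in 37.4%, GGGCGG in 35.7%, CACGTG in 7.15% and TTGCATCA in 0.895%. CACGTG and TTGCATCA have no match in either window, which says only that these letters are absent there.

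Arg2, the mitochondrial arginase, stood high on 2 knockout arrays. It read 8.26, 8.29, 6.30, 6.57 and 6.97 in knockout arrays 1 to 5, against 6.55, 6.03, 6.54, 6.44, 7.20 and 6.25 in wild type arrays 1 to 6. Knockout arrays 1 and 2 lay above every wild type array, and the other 3 lay within the wild type range. The knockout mean was 7.28 ± 0.94 (SD, n = 5), against a wild type mean of 6.50 ± 0.40 (SD, n = 6), a 1.71-fold difference (log2 0.78, SE 0.36) with a 95% interval from 1.01-fold to 2.92-fold. The exact permutation p was 0.108 (two-sided) and the limma adjusted p was 0.765. The rule was met in 3 of the 11 fits with 1 array left out. It was missed without wild type array 1 (0.79), 2 (0.68), 3 (0.78), 4 (0.76) or 6 (0.73), or without knockout array 1 (0.53), 2 (0.52) or 5 (0.85). Within the low neg control set, which holds knockout arrays 1, 2 and 5, the difference was 1.29. Within the high set it was 0.035.

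The macrophage marker mean was 8.58 in knockout array 1, 10.19 in knockout array 2, 8.82 in knockout array 5 and 8.47 in wild type array 5, the 4 arrays on which Arg2 was highest. With that mean in the model Arg2 differed by -0.018, and with the hepatocyte mean by 1.45. The macrophage mean itself differed between the genotypes by 1.19 and the hepatocyte mean by -0.81. These fits therefore cannot separate genotype from marker level. Arg2 followed the macrophage mean over the 11 arrays after subtraction of group means (Pearson r = 0.755 with permutation p = 0.020, Spearman rho = 0.600 with permutation p = 0.121, and r = 0.703 without the 2 arrays farthest from the median). The r had an adjusted p of 0.154 over the 63 correlations. Its r was 0.678 with the hepatocyte mean (permutation p = 0.023, rho = 0.645 with permutation p = 0.057, r = 0.517 without the 2 farthest arrays, adjusted p = 0.160). With the neutrophil mean it was 0.695 (permutation p = 0.039, rho = 0.555 with permutation p = 0.118, r = 0.556 without the 2 farthest, adjusted p = 0.193). The mean of 9 neutrophil markers was 7.86 in knockout array 1, the highest of all arrays, and 6.62 in knockout array 2, against 5.96 to 7.30 in wild type. Slc7a2 followed the neutrophil mean (r = 0.703, permutation p = 0.019; rho = 0.773, permutation p = 0.0096; r = 0.796 without the 2 farthest arrays; adjusted p = 0.154 for r), while its r with the macrophage mean was 0.210 (permutation p = 0.558, rho = 0.073 with permutation p = 0.849). That r was 0.567 without the 2 arrays farthest on the macrophage mean, and 0.532 over all 11 arrays without subtraction of group means (permutation p = 0.094). The neutrophil mean differed between genotypes by -0.01.

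**Figure D2:**
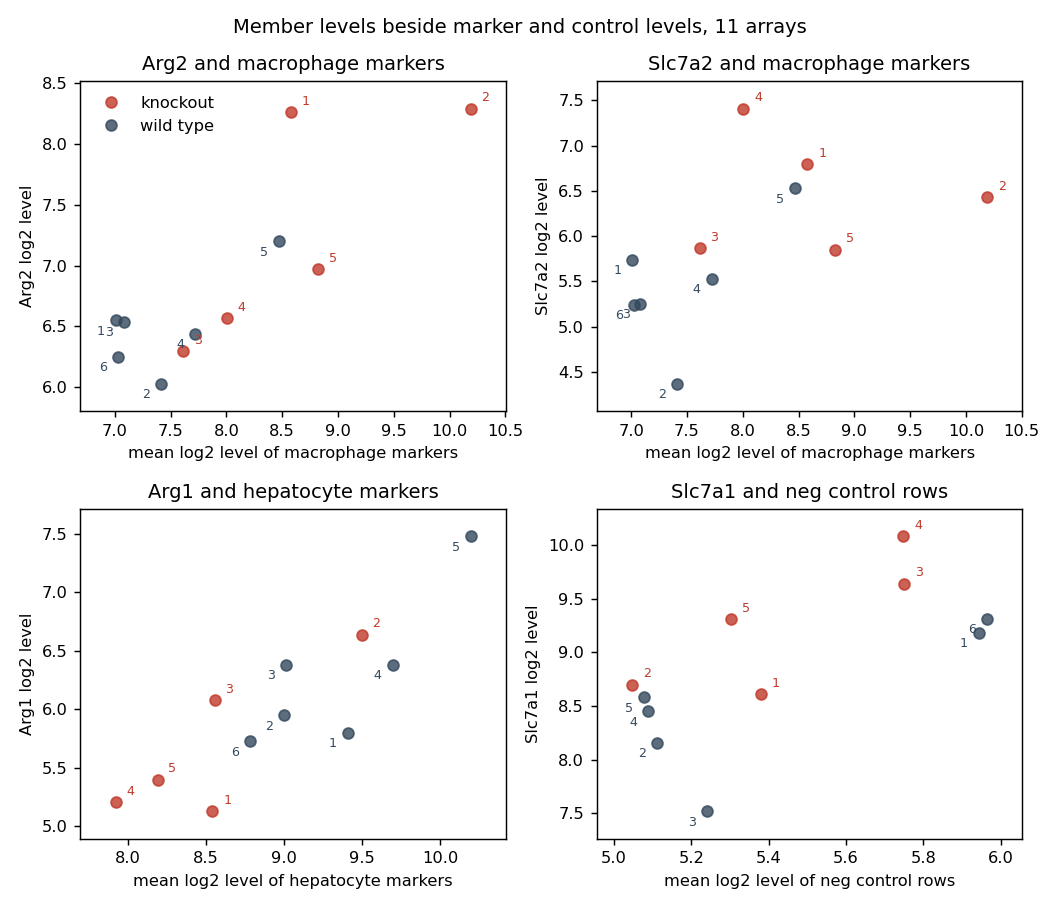
Log2 level of Arg2 and Slc7a2 against the mean of 15 macrophage markers, of Arg1 against the mean of 20 hepatocyte markers, and of Slc7a1 against the mean of the neg control rows, 1 point per array with its replicate number. Arg2 is highest on knockout arrays 1 and 2, Arg1 is highest on wild type array 5 (hepatocyte mean 10.20), and Slc7a1 is above 9 on all 4 arrays of high neg control signal.

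The cytosolic arginase Arg1, the last enzyme of the urea cycle, averaged 5.69 ± 0.65 in knockout (SD, n = 5), against 6.29 ± 0.65 (SD, n = 6) in wild type. By array it was 5.13, 6.64, 6.08, 5.21 and 5.40 in knockout, against 5.80, 5.95, 6.38, 6.38, 7.48 and 5.73 in wild type. Knockout arrays 1, 4 and 5 lay below every wild type array, and wild type array 5 was the highest of the 11. Arg1 was below the neg control mean on knockout arrays 1 (5.13 against 5.38) and 4 (5.21 against 5.75). The same held on wild type arrays 1 (5.80 against 5.94) and 6 (5.73 against 5.96). The difference of -0.59 (SE 0.33) passed the fold of the rule but not its p (unadjusted limma p = 0.098, exact permutation p = 0.158, two-sided). Without knockout array 2 it was -0.83 and met the rule, and without wild type array 5 it was -0.36. Within the low neg control set it was -0.82, and within the high set -0.12. The hepatocyte marker mean was 8.54, 7.92 and 8.19 on knockout arrays 1, 4 and 5, each below its lowest wild type value of 8.78. With that mean in the model Arg1 turned to 0.19. Arg1 followed the hepatocyte mean after subtraction of group means (Pearson r = 0.836 with permutation p = 0.0043, Spearman rho = 0.620 with permutation p = 0.060, and r = 0.704 without the 2 farthest arrays), with an adjusted p of 0.068 for r. Its r was 0.662 with the macrophage mean (permutation p = 0.0345, rho = 0.474 with permutation p = 0.173, adjusted p = 0.193 for r). Without the 2 arrays farthest on that mean, r was 0.523. With the neg control mean r was -0.559 (permutation p = 0.091, rho = -0.692 with permutation p = 0.030, adjusted p = 0.261 for r).

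Asl, the lyase that releases arginine from argininosuccinate, read 8.09, 8.25, 7.80, 7.52 and 7.98 in knockout and 7.83, 8.16, 7.99, 8.44, 8.43 and 7.77 in wild type. The groups overlapped, with 4 of the 5 knockout arrays below the wild type mean. The difference was -0.18 (SE 0.16, exact permutation p = 0.340, two-sided), with a 95% interval from -0.53 to 0.18. Asl was lower where the neg control rows were higher (r = -0.875, permutation p = 0.0018; rho = -0.845, permutation p = 0.0039; r = -0.840 without the 2 farthest arrays; adjusted p = 0.064 for r), and higher with the macrophage mean (r = 0.800, permutation p = 0.0039; rho = 0.864, permutation p = 0.0013; r = 0.806 without the 2 farthest; adjusted p = 0.068 for r). With the hepatocyte mean its r was 0.781 (permutation p = 0.011, rho = 0.709 with permutation p = 0.024, r = 0.620 without the 2 farthest, adjusted p = 0.132). Without subtraction of group means, r was 0.377 with the macrophage mean (permutation p = 0.255) and 0.778 with the hepatocyte mean (permutation p = 0.0055).

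Nos2, the inducible nitric oxide synthase of activated macrophages, was near one level in all arrays. It lay between 5.67 and 6.18 in knockout and between 5.66 and 6.30 in wild type, above the background mean on every array. The difference was 0.04 (SE 0.13), and its 95% interval reached from -0.24 to 0.33. A change of 1.5-fold (0.58) in array signal, in either direction, lay outside it. The level was low, below every array median (6.61 to 6.75). It lay below the neg control mean on wild type array 6 (5.66 against 5.96) and knockout array 3 (5.67 against 5.75), and level with it on wild type array 1 (5.94). RMA compresses differences at such levels, so the interval does not bound the change in Nos2 RNA.

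Odc1, which makes putrescine from ornithine, likewise showed no genotype difference beyond the spread. Its levels were 11.19, 10.86, 11.36, 11.52 and 10.80 in knockout, against 11.26, 11.32, 10.92, 10.89, 11.03 and 11.15 in wild type. Both the highest and the lowest array were knockout. The difference was 0.05 (SE 0.15, exact permutation p = 0.734, two-sided), with a 95% interval from -0.27 to 0.37. Among the 21 pairs of the 7 genes, r after subtraction of group means ran from -0.64 (Asl with Odc1, permutation p = 0.046; rho = -0.600, permutation p = 0.059) to 0.63 (Arg2 with Asl, permutation p = 0.043; rho = 0.536, permutation p = 0.092), and 0 pairs passed adjustment over the 63 correlations. The transporters Slc7a1 and Slc7a2 had r = 0.249 (permutation p = 0.485; rho = 0.173, permutation p = 0.635), and the arginases Arg1 and Arg2 r = 0.387 (permutation p = 0.284; rho = 0.096, permutation p = 0.796).

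**Figure D3:**
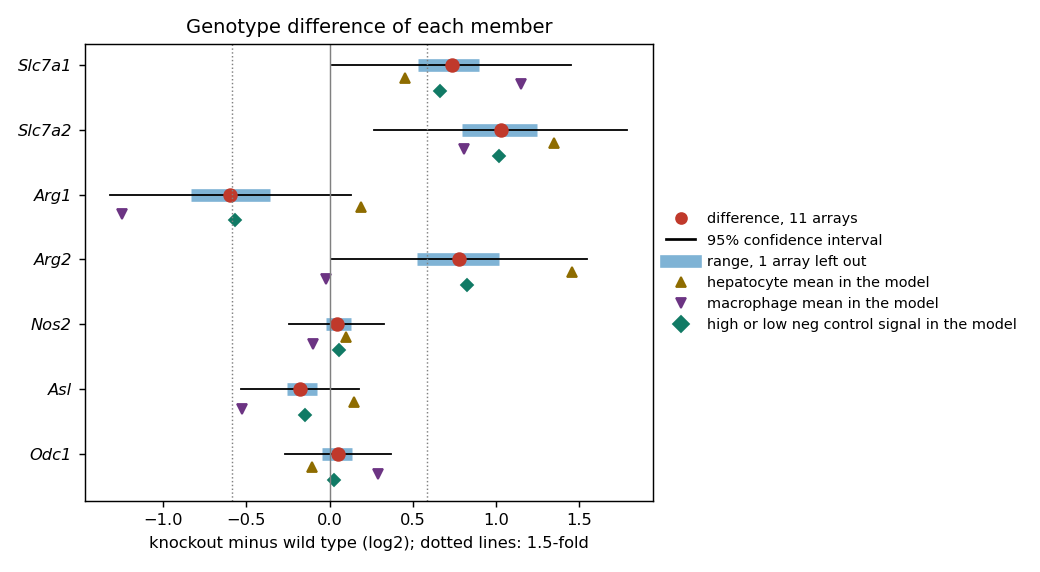
Knockout minus wild type difference of the 7 measured genes on the log2 scale, with limma's 95% confidence interval (black), the range over fits with 1 array left out (blue) and the value under 3 other models (triangles and diamonds). Slc7a2 lies beyond the 1.5-fold line under each of them, while Arg2 moves to -0.018 with the macrophage mean and Arg1 to 0.19 with the hepatocyte mean in the model.

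The genes whose levels ran most like each member were read off as the highest Pearson r of raw log2 levels over the 11 arrays, among 17819 named clusters with predicted and sex-linked genes left out, as a description. For Arg1 they were the hepatocyte enzymes Fbp1 of gluconeogenesis (r = 0.957) and Gnmt of methyl group metabolism (0.937), and the fatty acid desaturase Scd1 (0.933). For Arg2 they were the leukocyte genes Lst1 (0.957), Clec4a2 (0.955) and Glipr1 (0.950). Slc7a2 ran with Ms4a4c (0.940), the leukocyte receptor Slamf7 (0.925) and the inducible cyclooxygenase Ptgs2 (0.920). Slc7a1 ran with Shmt2, the mitochondrial serine hydroxymethyltransferase (0.962), Ndst2 of heparan sulfate synthesis (0.958) and Pdk4, an inhibitor of pyruvate oxidation (0.956). Asl had Atp5l (0.971), Zfp385a (0.966) and Det1 (0.959) nearest. For Odc1 the nearest were the olfactory and vomeronasal receptor genes Olfr994 (0.932), Vmn2r32 (0.890) and Olfr1115 (0.883). For Nos2 they were Pramel22 (0.916), Hs6st1 (0.906) and Gdf3 (0.896). All these r were picked as the highest of 17819 over 11 arrays, so their height alone shows no relation. Raw levels also carry the difference between the groups.

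Around the members, 59 of 69 listed genes of arginine handling had a cluster, and 1 was higher and 1 lower by the study's rule. Their median difference was -0.01. Of 12 other carriers of arginine and ornithine, 0 met the rule. The light chains Slc7a6 (y+LAT2) and Slc7a5 (LAT1), which pair with the Slc3a2 heavy chain, had an unadjusted limma p of at most 0.05 with smaller folds. Slc7a6 averaged 7.28 ± 0.47 in knockout (SD, n = 5), against 6.74 ± 0.39 (SD, n = 6) in wild type, a difference of 0.54 (SE 0.23, exact permutation p = 0.065, two-sided). It met the rule without wild type array 1 (0.64) or 6 (0.62) or without knockout array 2 (0.66) or 5 (0.59), with the replicate number as a block (0.62) and with the macrophage mean in the model (0.85). Its unadjusted limma p was above 0.05 when wild type array 2 (0.45), 3 (0.47) or 4 (0.49) was left out, when knockout array 1 (0.54) or 4 (0.35) was left out, and with the hepatocyte mean in the model (0.30). The mean of Slc7a6 was 0.67 higher in the high neg control set than in the low set. Within the high set the genotypes differed by 0.435, and within the low set by 0.53. Slc7a5, a carrier of leucine and other bulky amino acids, differed by 0.33 (SE 0.14). The mitochondrial carrier Slc25a29 differed by -0.16 (SE 0.10, unadjusted limma p = 0.149, exact permutation p = 0.017, two-sided), and by -0.080 without knockout array 2, its lowest array.

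All 4 urea cycle genes outside the members lay below 0, with a median of -0.45, beside the lower hepatocyte markers. Otc, which joins ornithine to carbamoyl phosphate, met the rule as lower (-0.72, SE 0.28, exact permutation p = 0.019, two-sided, n = 5 and 6). It lay below the array's background mean on all 5 knockout arrays and above it on 4 of 6 wild type arrays, so the size of this difference is not a measured ratio. Without wild type array 5 it was -0.47, and without knockout array 1 it was -0.58, and both missed the rule. Cps1, which makes carbamoyl phosphate, differed by -0.80 (SE 0.39) and met the rule once wild type array 2 (-0.99), wild type array 3 (-0.93) or knockout array 2 (-1.01) was left out, with array weights (-0.92) and with the macrophage mean in the model (-1.39). It was smaller than the fold of the rule without wild type array 5 (-0.54) or knockout array 1 (-0.55). The carrier Slc25a13 differed by -0.18 (SE 0.13). With the hepatocyte mean in the model Otc differed by -0.33 and Cps1 by -0.035.

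Among 13 genes of arginine methylation, arginylation, creatine synthesis, agmatine breakdown and arginine sensing, 1 met the rule. Prmt3, an arginine methyltransferase of ribosomal proteins, averaged 7.27 ± 0.39 in knockout (SD, n = 5), against 6.57 ± 0.53 (SD, n = 6) in wild type (0.70, SE 0.25, exact permutation p = 0.037, two-sided). The mean of Prmt3 was 0.725 higher in the high neg control set than in the low set. Within the high set the genotypes differed by 0.54, and within the low set by 0.72. The genotype difference of Prmt3 fell short of the fold without wild type array 4 (0.54) or knockout array 4 (0.55). With the hepatocyte mean in the model it was 0.47, short of both the fold and the p of the rule. With the hepatocyte and macrophage means both in the model it was 1.07, past the fold and not the p. The methyltransferase Prmt6 differed by 0.22 (SE 0.12) and Agmat, which hydrolyses agmatine, by -0.34 (SE 0.17). Of 12 polyamine genes, 0 met the rule and the median was 0.06. The synthases Sms (0.39, SE 0.19) and Srm (0.41, SE 0.22) and the antizyme Oaz2 (0.18, SE 0.19) had the smallest p. Of 6 genes linking ornithine, proline and glutamate, 0 met the rule, with Aldh18a1 at 0.26 (SE 0.14), Oat at 0.16 (SE 0.10) and Prodh at -0.16 (SE 0.10). Nor did any of 12 genes of nitric oxide synthesis and its control, whose median was -0.05. Their smallest p were those of Agxt2 (-0.22, SE 0.13), Ddah1, which degrades the synthase inhibitor dimethylarginine (0.25, SE 0.17), and Nos1ap (-0.16, SE 0.12).

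**Figure D4:**
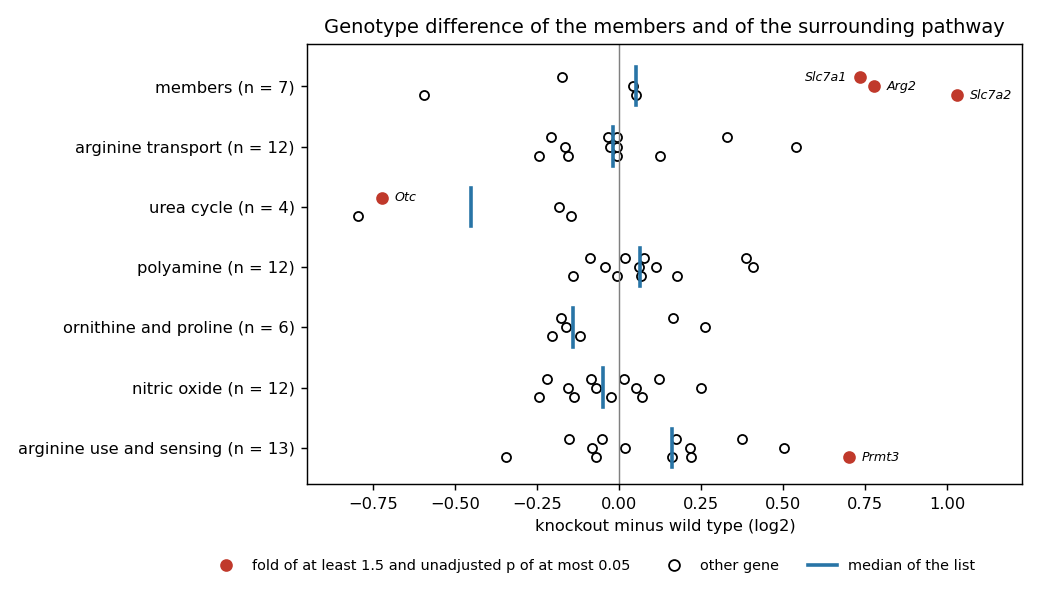
Knockout minus wild type difference (log2) of the 7 measured members and of the genes of 6 surrounding pathway lists, 1 point per gene, with the list median as a blue bar. Filled points met the study's rule: Slc7a1, Slc7a2, Arg2 and Prmt3 as higher and Otc as lower in knockout.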

How the data were processed

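Total RNA was labelled from 100 ng per sample and hybridized to Mouse Clariom S arrays, per the labels' protocols. Per the submitters' processing notes the tools were Affymetrix Expression Console and RMA, from which the authors deposited log2 values per transcript cluster; versions and genome build are not given in the sources used here. The log2 scale was read from the range of the values (2.15 to 13.79). RMA removes a change shared by most genes and compresses weak signals. Groups came from sample titles.

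Here 6640 control rows were left out and 22206 clusters were tested with limma 3.58.1 under R 4.3.3 (a model of genotype alone, moderated by eBayes, with Benjamini-Hochberg adjustment), whose script was checked on simulated data. The platform annotation gave a symbol to 19572 clusters. For single genes an exact permutation test (two-sided, all 462 splits of the arrays) was added (smallest p 0.0022), and correlations with 100000 permutations within groups, adjusted over 63. As nothing says that arrays are separate mice, p-values measure the spread between these arrays. Replicate numbers did not pair arrays (correlations of deviations from -0.32 to 0.39). Named genes were all members, up to 3 genes of smallest p per pathway list with any that met the rule, and the 3 genes most like each member. The members and lists were chosen with earlier results of these data known. Alternatives were arrays left out, a replicate block, other normalizations, weights, variance models, filters, covariates and thresholds. Those on neg control rows and on Y-linked signal were added after the data were seen.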

Additional observations from a re-analysis of the deposited data

Results flagged for a closer look

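In 62 sets of values (the measured members, the pathway genes named, the marker means and the neg control mean, each within a genotype), 3 had an array far from the others by Dixon's test at the 95% level. Chance gives about 1 such array in 20 sets. Arg1 read 7.48 in wild type array 5, against 5.73 to 6.38 in the other wild type arrays. Otc read 6.57 in the same array, against 4.83 to 5.33 in the others, and this array had the highest hepatocyte marker mean (10.20). Slc25a29 read 6.80 in knockout array 2, against 7.16 to 7.21 in the other knockout arrays.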

How the results depend on the processing

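Of 26 other fits, Slc7a2 met the study's rule in all but 2, with the macrophage mean (0.81) or with both the hepatocyte and the macrophage mean (1.55) as covariates. Arg2 missed it with the replicate block (0.73), array weights (0.43), least squares for each cluster alone (0.78), both means (0.38) or Y-linked signal as a term (0.70), and turned to -0.018 with the macrophage mean. Slc7a1 missed it with repeated quantile normalization (0.63), least squares (0.73), the hepatocyte mean (0.46), both means (1.30), Y-linked signal as a term (0.74) or the Y-linked arrays left out (0.58). Arg1 met it with array weights (-0.79) or the macrophage mean (-1.25) and turned with the hepatocyte mean (0.19) or both (0.17). Differences near 0 turned sign: Nos2 with the replicate block (-0.02), array weights (-0.0026), the macrophage mean (-0.10) or both (-0.35), Asl with the hepatocyte mean (0.15), and Odc1 with the hepatocyte mean (-0.11) or without the Y-linked arrays (-0.033). Of the other genes, Cps1 (0.13), Nos1ap (0.013), Prmt6 (-0.12) and Oaz2 (-0.034) turned with both means, and Oaz2 (-0.20) and Ddah1 (-0.065) with the macrophage mean. With 1 array left out the differences ran from 0.79 to 1.25 for Slc7a2, 0.53 to 0.90 for Slc7a1, 0.52 to 1.02 for Arg2, -0.83 to -0.36 for Arg1, -0.02 to 0.13 for Nos2 and -0.043 to 0.14 for Odc1. The replicate block changed no call of a member other than that of Arg2.

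The 3 members called came to 1 to 3 with 1 array left out, 1 with least squares, 1 with Y-linked signal and 0 with both means. Over all clusters the 228 called became 123 with least squares, 620 with the hepatocyte mean, 1731 with the macrophage mean, 736 with both and 60 at a fold of 2. Past the adjusted p, 0 became 68 with the hepatocyte mean, 28 with the macrophage mean and 0 to 1 with 1 array left out. Without subtraction of group means, r turned to 0.064 for Slc7a1 with the macrophage mean and to -0.20 for Slc7a2 with the hepatocyte mean. In that setting some permutation p of r passed adjustment. They were those of Arg1 with the hepatocyte mean (r = 0.864, adjusted p = 0.027), Arg2 with the macrophage mean (0.830, 0.032) and Asl with the neg control mean (-0.847, 0.027). For rho that of Arg2 did not pass (adjusted p = 0.104). Such r also carry the difference between the groups. The causes were not tested. Arg1, Nos2 and Slc7a2 lay low on the arrays' scale on average, where RMA compresses differences. Arg2 averaged 6.50 in wild type and 7.28 in knockout, against array medians of 6.61 to 6.75.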
